A study of Saccharomyces cerevisiae with 49 samples.

Results

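The small subunit of the yeast mitochondrial ribosome was followed through 32 genes, each the gene of a protein of the subunit or of a protein assigned to it. Members were the probe sets whose gene symbol in the platform annotation was on the list, and each of the 32 genes had 1 probe set among the 5498 of 5449 Saccharomyces cerevisiae genes on the array. All 32 passed the filter on low values, a median signal above 11.5, which kept 5469 probe sets. VAR1, the subunit protein encoded in mitochondrial DNA, was not analysed here.

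The samples came from 1 continuous culture of CEN.PK113-7D, a haploid laboratory strain labelled MATa, grown in glucose medium at pH 4.0 while it oscillated with a period of about 4 h. RNA was taken every 5 min and hybridised to 49 Affymetrix Yeast Genome 2.0 arrays, 1 per sample. A phase angle stands on every sample's label, without a statement of which event lies at phase 0. Samples were grouped by it into 6 windows of 60 degrees, with 8 samples each in phase 0-60, 60-120, 120-180, 180-240 and 240-300, 7 in phase 300-360, and 2 further samples, at 606.97 and 614.63 degrees, in the next cycle (called the second pass, and matched to phase 240-300). No mutant, drug or other strain was used, so every comparison is between phases of the same culture. A window holds consecutive samples from that culture, so each p-value measures the spread between such samples and says nothing of other cultures.

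The mitochondrial ribosome translates the few messenger RNAs made from mitochondrial DNA, nearly all of which encode subunits of the respiratory chain and of ATP synthase. Its small subunit binds the messenger RNA and decodes it, and its large subunit joins the amino acids. Except for Var1, the proteins of the small subunit are encoded in the nucleus, made on cytosolic ribosomes and imported. Some are homologues of bacterial ribosomal proteins of the head, body or platform of the subunit, and others occur only in mitochondria. In yeast, many of the nuclear messages are bound by Puf3, an RNA-binding protein that acts on messages of mitochondrial proteins.

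Signals are intensities on a linear scale after each array was set to the same median, 1918. The array medians as deposited ran from 1450 to 2582. All 7 a-specific marker genes were above the level of the filter, with median signals from 1026 for ASG7 to 8948 for MFA2. So were all 4 alpha-specific genes, in spite of the MATa label. Their median signals were 87 for MF(ALPHA)2, 547 for MF(ALPHA)1, 676 for STE3 and 1299 for SAG1. The source of the alpha-specific signals was not tested. The ratio of 3' to 5' control probe sets, a sign of RNA quality, was larger in phase 0-60 for TDH1, at 0.32 ± 0.17 against 0.05 ± 0.06 in phase 60-120 (log2, SD, n = 8 each). For ACT1 it was 0.33 ± 0.13 in phase 0-60 and 0.13 ± 0.05 in phase 60-120 (log2, SD, n = 8 each). SPT15 had 1.10 ± 0.13 in phase 0-60 and 1.02 ± 0.11 in phase 60-120, and RIP1 0.27 ± 0.12 in phase 0-60 and 0.15 ± 0.11 in phase 60-120. For ACT1 and RIP1 the mean of phase 60-120 was the lowest of the 6 windows. In phase 300-360 these means were 0.29 ± 0.06 and 0.31 ± 0.08 (log2, SD, n = 7). For TDH1 and SPT15 phase 60-120 was not the lowest, as phase 300-360 had 0.02 and 0.99. The part of these ratios in the results on phase 0-60 and on phase 60-120 was not tested.

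The genes of the subunit were highest in phase 60-120. The RNA came from the whole culture, so fewer cells with a message and less message per cell cannot be told apart. Averaged over the members other than EHD3, the signal changed by 1.03-fold over the 20 min between 2.04 and 32.66 degrees. Over the next 35 min, to 86.24 degrees, it reached 2.75-fold its level at 32.66 degrees. It was down to 64.0% of the 86.24-degree level 20 min later, at 116.85 degrees. A slower decline followed, to 73.2% of the 116.85-degree level after a further 40 min, at 178.09 degrees. The level at 239.32 degrees was 94.5% of that at 178.09 degrees. Between 244.11 and 354.23 degrees, the first 70 min of sampling, the average fell to 85.5% of its starting level. Sampling began at 244.11 degrees, so the values at 239.32 and 244.11 degrees were measured about a full period apart. EHD3 was left out of the average because its median signal, 21, was near the level of the filter.

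**Figure D1:**
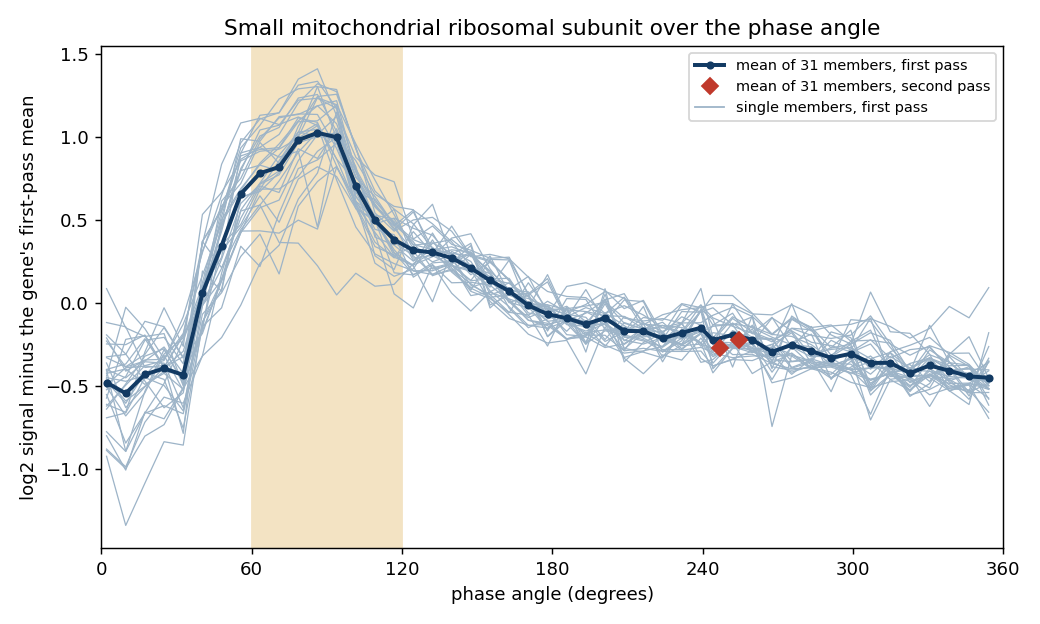
Log2 signal of the 31 members other than EHD3 (y axis, thin lines, each minus its own first-pass mean) and their average (thick line with points) over the phase angle in degrees (x axis), with the average in the 2 samples of the second pass as diamonds and phase 60-120 shaded. The average stays near its lowest level until 32.66 degrees, is highest at 86.24 degrees and then declines.

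Of the 32 members, 31 followed a cosine of the phase angle over the 49 samples, where 88.5% of all tested probe sets did (limma, Benjamini-Hochberg adjusted p below 0.05 over 5469 probe sets). EHD3 was the exception. The median peak-to-trough ratio of the fitted cosine was 2.02-fold. The window tests placed the change within the cycle. In phase 60-120 against the mean of the other 5 windows, 31 members were higher and none lower, where 38.3% of all probe sets were higher and 30.6% lower. The median difference of the 32 members was 1.94-fold in that window, against 1.05-fold over all tested probe sets. Among the members, 29 were called and at least 1.5-fold higher, where 9.2% of all probe sets were. EHD3 was again the member that was not called.

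Phase 60-120 was also higher than each of its neighbours. Against phase 0-60, 31 members were higher, with a median of 1.88-fold, where 45.9% of all probe sets were higher and 37.5% lower. Against phase 120-180, 30 were higher, with a median of 1.53-fold, where 18.3% of all probe sets were higher and 17.8% lower. RSM22 and EHD3 were the exceptions there, at 1.10-fold and 0.758-fold. With only every other sample in time order, 17 members in place of 30 were higher than in phase 120-180 in the odd samples.

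Outside phase 60-120, phase 120-180 was the window in which members were called higher. In phase 0-60, 12 members were lower (median of the 32, 0.918-fold) and none higher, where 43.3% of all probe sets were lower and 39.8% higher. These were RSM7, RSM18, RSM28, MRPS9, MRPS12, MRPS16, MRPS18, MRP10, MRP17, MRP51, PET123 and SWS2. Without the first 5 samples of the window, which precede the rise, a choice made after seeing the data, 20 members were higher and 1 lower, and in the odd samples in time order alone 5 were lower. The arrays of this window had larger 3' to 5' ratios than those of phase 60-120, as given above. In phase 120-180, 12 members were still higher (median 1.16-fold) and none lower, where 21.2% of all probe sets were higher and 22.6% lower. In phase 180-240, 6 members were lower and none higher, where 7.08% of all probe sets were lower and 8.34% higher, namely RSM19, RSM23, RSM26, MRPS9, MRP1 and MRP13. The count of members that were lower was 25 in phase 240-300, where 14.6% of all probe sets were lower and 14.9% higher, and 30 in phase 300-360, where 14% were lower and 12.6% higher. No member was higher in either. Median differences there were 0.801-fold and 0.706-fold. RSM22 and EHD3 were the members not called in phase 300-360. Counts outside phase 60-120 moved with the scaling: as deposited, without setting the arrays to the same median, 7 members were lower in phase 0-60, 1 higher in phase 120-180, 0 lower in phase 180-240, 3 in phase 240-300 and 14 in phase 300-360.

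Counterparts of bacterial proteins of the subunit's head made up 7 of the members, and all 7 were higher in phase 60-120, by 1.77-fold to 2.13-fold. MRPS9, the counterpart of bacterial S9, had lowest, median and highest signals of 7951, 10119 and 12962 in the 8 samples of phase 60-120, against 3887, 4628 and 7833 in the 39 samples of the other windows. All 8 samples of phase 60-120 were thus above every other sample of the first pass, and the log2 difference was 1.09 (SE 0.07) with an adjusted p of 2.62e-15 in limma. SWS2, the counterpart of S13, showed the same separation, with 3495, 4059 and 4772 in the 8 samples of phase 60-120, against 1254, 2106 and 3446 in the 39 samples of the other windows. Its log2 difference was 0.96 (SE 0.09), or 1.95-fold. RSM7, the counterpart of S7, had 5481, 6564 and 8193 in the 8 samples of phase 60-120, against 1966, 3633 and 5489.9 in the 39 samples of the other windows. Its highest sample outside phase 60-120 thus just exceeded its lowest inside it, and the difference was 1.89-fold. MRP4, the counterpart of S2, was 2.05-fold higher and RSM10, the counterpart of S10, 2.02-fold. RSM19, the counterpart of S19, was 1.80-fold higher and MRP2, the counterpart of S14, 1.77-fold. MRP2 overlapped between windows, since its lowest, median and highest signals were 4956, 6864 and 8321 in the 8 samples of phase 60-120, against 2663, 3626 and 7686 in the 39 samples of the other windows.

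All 5 body proteins and all 6 platform proteins were higher in phase 60-120 as well, with class medians of 1.99-fold and 1.89-fold. NAM9, the counterpart of S4 and known for a mutant form that suppresses nonsense mutations in mitochondrial genes, had signals of 3160.1, 4453 and 5653 in the 8 samples of phase 60-120, against 1259, 1940.0 and 4121 in the 39 samples of the other windows. Only samples from phase 0-60 reached its lowest value of phase 60-120, as the highest in each remaining window was below it, and its log2 difference was 1.18 (SE 0.11). MRPS5, the counterpart of S5, was 2.10-fold higher and MRPS17, the counterpart of S17, 1.99-fold. MRPS12, the counterpart of the decoding-site protein S12, had 7922, 11301 and 14903 in the 8 samples of phase 60-120, against 3359, 6411 and 9262 in the 39 samples of the other windows, and was 1.78-fold higher. Its overlap was with phase 120-180 alone. MRPS16, the counterpart of S16, had 4671, 5917 and 7395 in the 8 samples of phase 60-120, against 2696, 3986 and 5438 in the 39 samples of the other windows, and its difference of 1.48-fold was the smallest in the body class.

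Among the platform proteins, MRPS28, the counterpart of S15, was 2.12-fold higher, with lowest, median and highest signals of 2471, 3936 and 4639 in the 8 samples of phase 60-120, against 1252, 1646 and 3404 in the 39 samples of the other windows. MRPS18, the counterpart of S11, separated without overlap, at 5598, 6587 and 8776 in the 8 samples of phase 60-120, against 2671, 3553 and 5396 in the 39 samples of the other windows, a difference of 1.88-fold. RSM18, the counterpart of bacterial S18, had 6509.8, 6890.0 and 8575 in the 8 samples of phase 60-120, against 3119.9, 4384 and 6567 in the 39 samples of the other windows, a difference of 1.56-fold. That was the smallest difference of the platform class. MRP17, the counterpart of S6, was 1.95-fold higher, MRPS8, the counterpart of S8, 1.90-fold, and MRP21, the counterpart of S21, 1.86-fold.

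The 14 members outside the head, body and platform classes, most of them found only in mitochondria, held both the largest and the smallest differences. RSM26 had 2877, 4600.2 and 5315 in the 8 samples of phase 60-120, against 1367, 1694 and 4110.0 in the 39 samples of the other windows. Its log2 difference of 1.20 (SE 0.11) was the largest of the 32 members. RSM26 and MRP1 are related to superoxide dismutase in fold, and MRP1 was 2.07-fold higher. RSM25 was 2.19-fold higher, with lowest, median and highest signals of 1498, 2891 and 3515 in the 8 samples of phase 60-120, against 829, 1069.7 and 2468 in the 39 samples of the other windows, which overlapped. RSM28 separated without overlap, at 3606, 4578 and 6014 in the 8 samples of phase 60-120, against 1228, 2157 and 3591 in the 39 samples of the other windows, and was 2.17-fold higher. MRPS35 was 2.16-fold and MRP13 2.15-fold higher. PET123 had 3978, 5373 and 7050.4 in the 8 samples of phase 60-120, against 1163, 2658 and 4586 in the 39 samples of the other windows, which overlapped, and was 2.07-fold higher. The difference for RSM23, the yeast relative of the GTP-binding protein DAP3, was 1.93-fold, that for RSM24 1.90-fold and that for RSM27 1.83-fold. Smaller differences were found for MRP10, a protein with paired cysteine motifs, at 1.70-fold, and for MRP51, which acts with the 5' leaders of mitochondrial messages, at 1.66-fold. These 12 members had standard errors of 0.08 to 0.12 on the log2 scale.

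RSM22 and EHD3 stood apart from the other members. RSM22, a methyltransferase-like protein linked to assembly of the subunit, had 1046, 1164 and 1525 in the 8 samples of phase 60-120, against 715, 947 and 1374 in the 39 samples of the other windows. The groups overlapped, and its log2 difference was 0.30 (SE 0.07) with an adjusted p of 1.73e-04 in limma, which was 0.0509 with the values as deposited. EHD3, which resembles a hydrolase of valine breakdown, had signals of 2.53, 19.8 and 38.5 in the 8 samples of phase 60-120, against 4.09, 21 and 46.5 in the 39 samples of the other windows. These lay around the level of the filter in every window, and its log2 difference of -0.05 (SE 0.36) had an adjusted p of 0.906 in limma, so no difference was detectable at that signal.

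**Figure D2:**
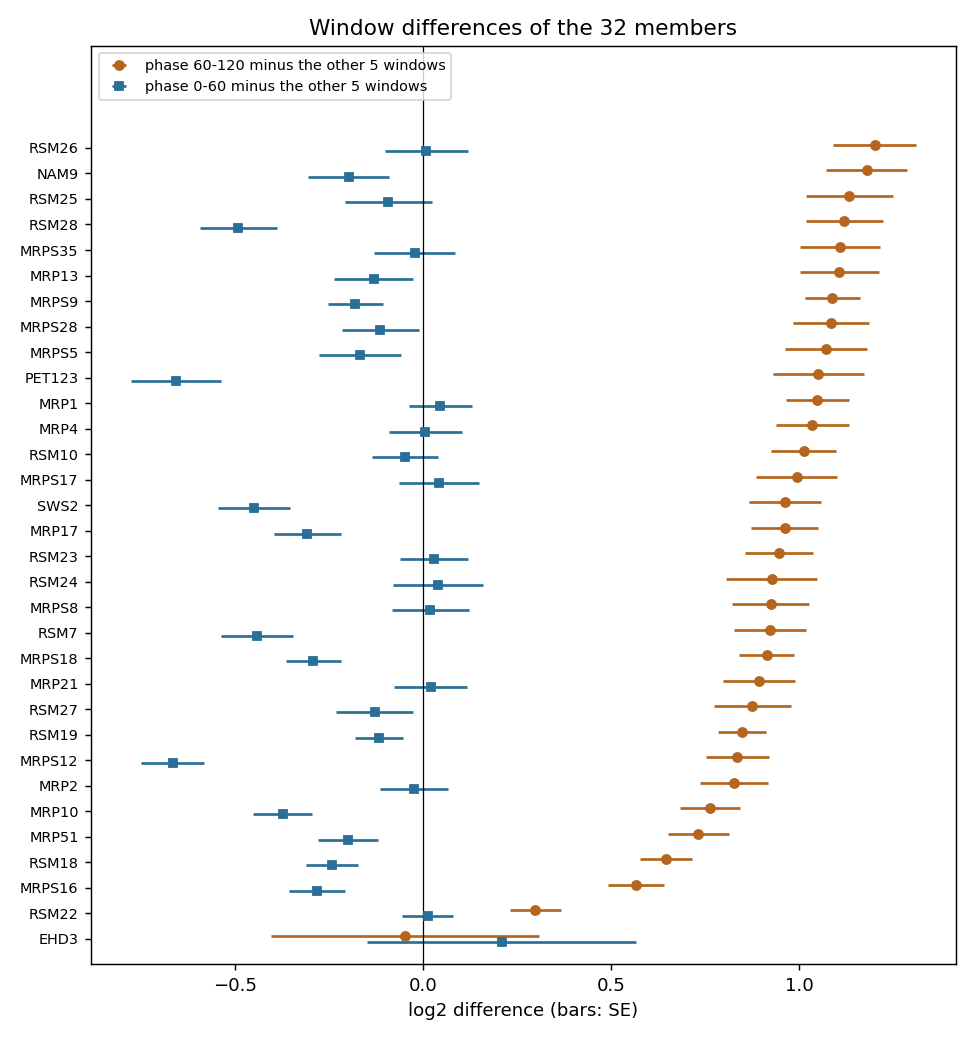
Log2 difference of each of the 32 members (rows) from the mean of the other 5 windows (x axis), for phase 60-120 and phase 0-60, with bars of 1 standard error. In phase 60-120 the members other than EHD3 lie between 0.30 for RSM22 and 1.20 for RSM26, and in phase 0-60 they lie on both sides of 0.

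Whether the samples of phase 60-120 were above all others was counted without a test. RSM28, MRPS9, MRPS18 and SWS2 were the 4 members whose lowest sample of phase 60-120 exceeded the highest of all other windows, where 1.04% of all tested probe sets did. These 4 and MRPS12 exceeded every sample of phase 0-60, where 16.1% of all probe sets did. The count was 15 against phase 120-180, where 5.1% of all probe sets did, and 31 against phase 180-240, where 10.7% did. It was 31 against phase 240-300 and 30 against phase 300-360, with 12.8% and 13.3% over all probe sets. The samples of phase 0-60 above 32.66 degrees already lay on the rise. The average of the 31 members was 11.36, 11.64 and 11.96 on the log2 scale at 40.31, 47.97 and 55.62 degrees, and between 10.75 and 10.90 in the 5 earlier samples of the window.

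The rise and the fall were then placed by comparing each window of 30 degrees, of 4 samples (3 in 300-330), with the one before it. In 30-60 against 0-30 degrees, 29 members were higher and none lower, with a median of 1.55-fold, where 34.3% of all probe sets were higher and 29.1% lower. RSM19, RSM27 and EHD3 were not called. In 60-90 against 30-60 degrees, 31 members were higher with a median of 1.69-fold, where 38.1% of all probe sets were higher and 34.7% lower. All 29 members called in the earlier step were thus called in the later one too.

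The fall was spread over a pair of steps too. In 90-120 against 60-90 degrees, 14 members were lower, where 17.3% of all probe sets were lower, and 1 was higher, where 26.9% were. The median over the 32 members was 0.811-fold. In 120-150 against 90-120 degrees, 19 were lower and none higher, where 13% of all probe sets were lower and 10.3% higher, and the median was 0.766-fold. Of the 25 members that were lower in either step, 8 were lower in both. The counts rested on few samples. In 120-150 degrees 5 members were lower without the sample at 93.89 degrees, and 12 without that at 101.55, 132.16, 139.82 or 147.47 degrees. In 90-120 degrees 7 were lower without the sample at 116.85 degrees and 9 without that at 109.20 degrees. As deposited, 26 members were lower in 90-120 degrees and 0 in 120-150 degrees, so the split of the fall between these steps depended on the scaling.

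Outside this stretch few members moved between adjacent windows. In 0-30 against 330-360 degrees 6 members were lower and none higher, where 37.5% of all probe sets were lower and 38.1% higher, namely RSM7, RSM28, MRPS12, MRP51, PET123 and SWS2. That count was 3 without the sample at 330.63 or at 9.70 degrees. With quantile normalization 2 members were higher and 5 lower. In the 7 steps into the windows from 150-180 to 330-360 degrees no member was called by limma. Few probe sets were called there in all: 0.494% were higher and 0.366% lower in 150-180 degrees, 0.0731% and 0.146% in 180-210 degrees, and 0.293% and 0.201% in 210-240 degrees. The share that was lower was 0.475% in 240-270 degrees, 0.274% in 270-300 degrees, 0.128% in 300-330 degrees and 0.0914% in 330-360 degrees, with 0% higher in each of these 4 steps. The step into 240-270 degrees sets the first samples of the series against its last ones before the second pass. As deposited, 14 members were lower in 270-300 degrees. Unadjusted p-values below 0.05 were reached by 13 members in 150-180 degrees, 3 in 180-210 degrees and 2 in 330-360 degrees, each of them lower, and by none in the steps between. A single member was called lower in 150-180 degrees without the sample at 32.66 degrees.

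**Figure D3:**
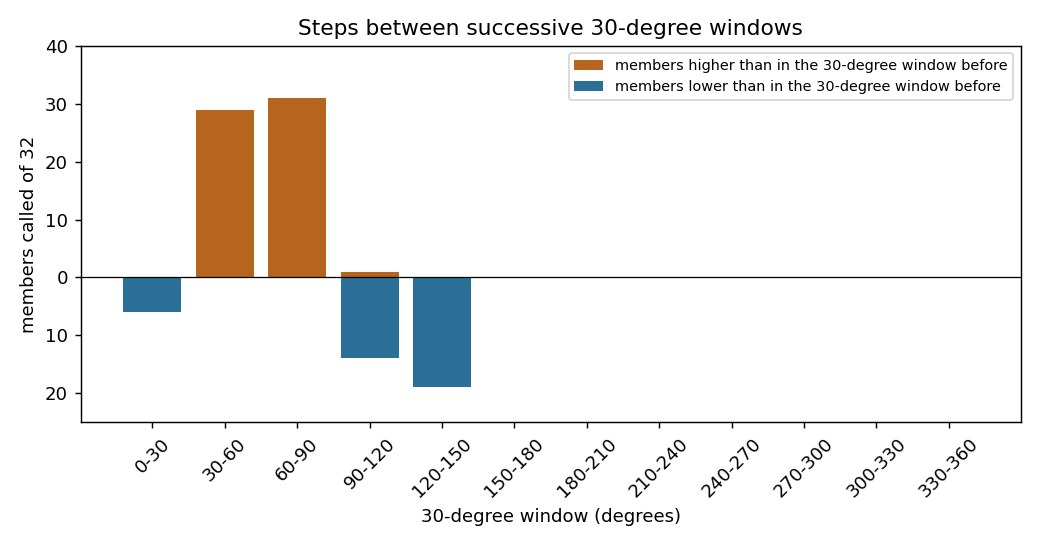
Number of the 32 members that were higher (above 0) or lower (below 0) in each window of 30 degrees than in the one before (y axis), for the 12 windows in degrees (x axis). The tall upward bars, of 29 and 31 members, stand at 30-60 and 60-90 degrees, and the downward bars of 14 and 19 members at 90-120 and 120-150 degrees.

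The members peaked close together. After averaging each sample with its neighbours in phase order (3 samples), the highest value lay between 63.27 and 101.55 degrees for all 31 members other than EHD3, and at 86.24 degrees for 18 of them. A further 7 peaked at 78.58 degrees. RSM22 was earliest, at 63.27 degrees, and RSM24 and MRP2 followed at 70.93 degrees. MRPS12 and MRPS16 peaked at 93.89 degrees and RSM18 at 101.55 degrees. The ratio of highest to lowest averaged value was 1.70 for RSM22 and 4.95 for PET123, with a median of 3.09. The most common lowest point, shared by 8 members, was 9.70 degrees. With 5 samples averaged, or with the values as deposited, the median peak was 78.58 in place of 86.24 degrees.

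Members were also compared with one another in phase 0-60, a window that holds samples before the rise and on it, so that level and timing of the rise are mixed. The mean log2 signal of the other members was subtracted from each array. EHD3, near the level of the filter, was kept in that mean and shifted it unevenly. With and without EHD3 the mean of the members was 11.34 and 11.64 at 47.97 degrees, and 10.64 and 10.82 at 2.04 degrees. The part of EHD3 in the relative differences was not tested. In phase 0-60 against the mean of the other windows, 12 members (37.5%) were then higher relative to the rest of the subunit. A further 9 (28.1%) were lower. Over all probe sets 44.5% were higher and 31.1% lower. Members necessarily fall on both sides of their own mean, which was subtracted from the other probe sets too. The shares over all probe sets are thus no measure for the members' counts. MRPS12 and PET123 were the farthest below, with differences of -0.52 (SE 0.08) and -0.51 (SE 0.06) on the log2 scale, with adjusted p of 7.99e-08 and 1.92e-10 in limma. RSM28, SWS2, RSM7, MRP10, MRP17, MRPS18 and MRPS16 were the other 7 below. Of the called members, MRP1, MRPS17 and RSM24 were the farthest above, with 0.22 (SE 0.05), 0.21 (SE 0.06) and 0.21 (SE 0.07). EHD3 had 0.38 (SE 0.35) and was not called. This comparison was chosen after the values were seen.

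PET123, a protein specific to mitochondria, had lowest, median and highest signals of 1163, 1638 and 4586 in phase 0-60, against 2059.8, 2240.1 and 2372 in phase 300-360. Its median in phase 0-60 was thus below the whole range of the preceding window. MRPS12 had 3359, 4365 and 6652 in phase 0-60, against 4509, 5418 and 7026 in phase 300-360, which overlapped. MRP1 had 2198, 2830.3 and 4778 in phase 0-60, against 1994, 2172 and 2373 in phase 300-360. Its median in phase 0-60 was thus above the highest sample of the preceding window.

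MRPS12 had the latest midpoint of the rise among the 31 members other than EHD3. Its signals were 7922, 8545, 10362, 11556, 14903, 12345, 11458 and 11144 in the 8 samples from 63.27 to 116.85 degrees, in phase order, so its highest single sample was the one at 93.89 degrees. The deposited array median was 1527 in that sample and 2161 in the one at 86.24 degrees, so which sample was highest depended on the scaling. MRPS12 was the only member higher in 90-120 than in 60-90 degrees, by 1.30-fold (adjusted p = 0.00147, limma), although with the values as deposited or with quantile normalization none was called there. Its steps into 30-60 and 60-90 degrees were 1.51-fold and 1.70-fold. Its neighbour on the chromosome is RSM19, a fellow member, whose steps into 30-60 and 60-90 degrees were 1.18-fold (adjusted p = 0.0605) and 1.68-fold. RSM19 was 0.917-fold in 90-120 against 60-90 degrees, which was not called (adjusted p = 0.37). For these 31 members the midpoint of the rise, a measure chosen after the values were seen, ran from 35.8 degrees for MRPS17 to 56.2 degrees for MRPS12 with a median of 46.1 degrees.

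**Figure D4:**
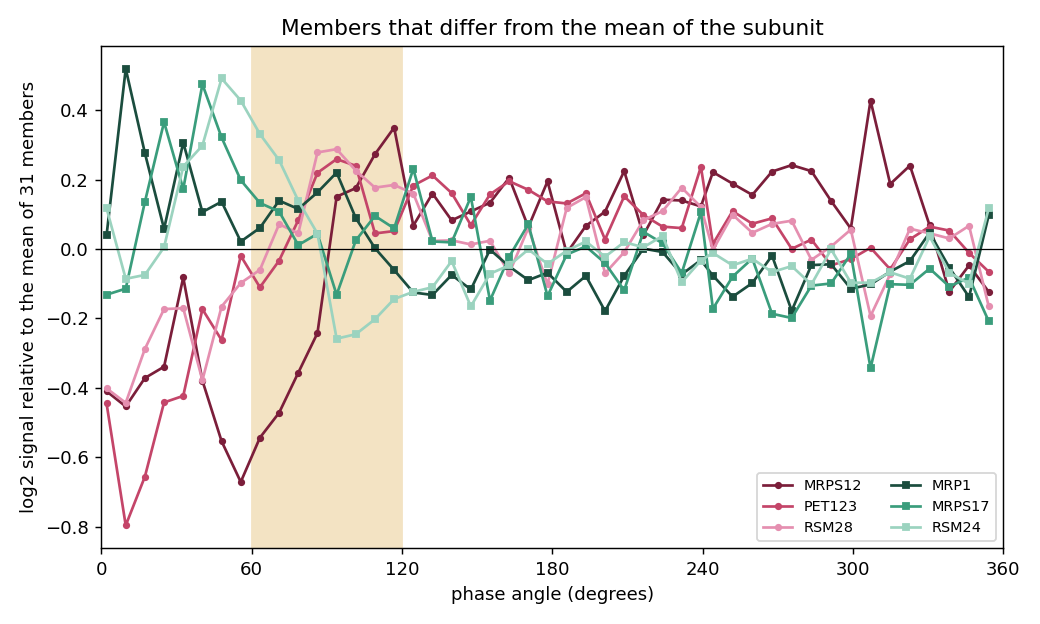
Log2 signal relative to the average of the 31 members (y axis, each member centred on its first-pass mean) over the phase angle in degrees (x axis), for the 3 called members farthest below (circles) and the 3 farthest above (squares) the rest of the subunit in phase 0-60. MRPS12, PET123 and RSM28 lie below 0 and MRP1, MRPS17 and RSM24 above it in most samples of phase 0-60, and MRPS12 lies below 0 until 86.24 degrees and above it from 93.89 to 116.85 degrees.

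In the size of the peak itself, 13 members had a larger difference in phase 60-120 than the mean of the others and 6 a smaller one. Over all probe sets the shares were 1.41% and 92.1%. The subtracted mean of the members was itself higher in phase 60-120, so most other probe sets had to come out smaller. Members had to fall on both sides of their own mean. The shares over all probe sets are therefore no measure for the members' counts. RSM26 and NAM9 were the farthest above, with 0.30 (SE 0.05) and 0.28 (SE 0.05) on the log2 scale. RSM22, MRPS16 and RSM18 were below, with -0.63 (SE 0.07), -0.35 (SE 0.05) and -0.27 (SE 0.06), and so were MRP51, MRP10 and EHD3. Of these 6, MRPS16, RSM18, MRP51 and MRP10 were still higher in phase 60-120 in the test above, by at least 1.48-fold.

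The second pass, in the next cycle, returned close to the level of the same phase in the first. The average of the 31 members was 11.02 and 11.08 on the log2 scale at 606.97 and 614.63 degrees, against a lowest, median and highest of 10.97, 11.03 and 11.11 in phase 240-300. The members lay between 0.849-fold and 1.22-fold of phase 240-300, 20 above 1 and 12 below, with a median of 1.02-fold. No member was called by limma and none had an unadjusted p below 0.05, where 0% of all probe sets were called and 43 of them (0.786%) had an unadjusted p below 0.05. The smallest adjusted p over all probe sets was 0.132. The standard error of a member was typically 0.20 on the log2 scale, so shifts of that size were not detectable. As deposited, the median of all probe sets in the second pass was lower by 0.18 on the log2 scale, and that of the members was 0.893-fold. The second pass was also set against the first 2 samples of the series, at 244.11 and 251.97 degrees, which are nearer in phase. The members' median was then 0.967-fold, from 0.888-fold to 1.23-fold, and none had an unadjusted p below 0.05 in limma. Phase 60-120 itself was sampled in 1 cycle only.

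The other genes of mitochondrial translation were taken from lists of textbook members. Over all tested probe sets, 38.3% were higher and 30.6% lower in phase 60-120. All 44 genes of the large mitochondrial subunit were higher in phase 60-120 and none lower, with a median of 1.90-fold, from 1.40-fold for MRPL33 to 2.54-fold for MNP1, whose product resembles the bacterial stalk protein. Their peaks all lay in phase 60-120, and 29 of 44 were at 86.24 degrees, as for 18 of the 31 small-subunit members. The mean of the large subunit at 86.24 degrees was 2.77-fold that at 32.66 degrees, beside 2.75-fold for the small subunit. In phase 0-60, 3 of its 44 genes were higher and 21 lower, where 39.8% of all probe sets were higher and 43.3% lower.

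The counts of the smaller lists stand beside the same shares, 38.3% higher and 30.6% lower over all probe sets in phase 60-120. Of 13 mitochondrial aminoacyl-tRNA synthetases, which charge the tRNAs, all were higher in phase 60-120 with a median of 1.91-fold, from 1.47-fold for MSR1 to 3.28-fold for MSF1. Of 12 initiation, elongation and release factors and related genes, 11 were higher, with a median of 2.00-fold, from 0.978-fold for GTF1, which was not called, to 2.40-fold for MRF1, the release factor. Of 14 activators that act on single mitochondrial messages, 8 were higher and 1 lower, with a median of 1.17-fold, from 0.905-fold for PET122 to 2.04-fold for CBP6. In phase 0-60, 2 of these activators were higher and 9 lower, where 39.8% and 43.3% of all probe sets were. Against phase 120-180 only 3 of the 14 were higher in phase 60-120 (median 1.05-fold). Of 9 tested genes linked to assembly of the mitochondrial ribosome 7 were higher, with a median of 1.28-fold, from 0.892-fold for MRH4 to 2.59-fold for MAM33. Genes of the respiratory chain, whose mitochondrial partners these ribosomes make, were called higher for 29 of the 33 tested, and their median difference was 1.16-fold. In phase 0-60, 31 of the 33 were lower (median 0.771-fold), where 43.3% of all probe sets were. Against phase 120-180 only 2 of the 33 were higher in phase 60-120 (median 1.06-fold), where 18.3% of all probe sets were. Their mean was highest in the sample at 93.89 degrees, and at 101.55 degrees after averaging 3 samples. The means of both mitochondrial subunits were highest at 86.24 degrees with and without that averaging. Arrays at 93.89 and 86.24 degrees had deposited medians of 1527 and 2161. Which sample was highest for the respiratory chain thus depended on the scaling. Its peak with the values as deposited was not tested.

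The cytosolic counterparts moved the other way. Of 52 genes of the small cytosolic subunit, 44 were lower and none higher in phase 60-120, with a median of 0.826-fold, and in phase 0-60 50 were higher. Over all probe sets, 38.3% were higher and 30.6% lower in phase 60-120, and 39.8% were higher in phase 0-60. Of 30 ribosome biogenesis genes all were lower in phase 60-120, with a median of 0.250-fold, and all were higher in phase 0-60, with a median of 3.70-fold. With the arrays scaled, the means of both lists were highest in the sample at 17.35 degrees, before the members' rise began. Arrays at 17.35 and 47.97 degrees had deposited medians of 1561 and 2582. Which sample was highest for the small cytosolic subunit thus depended on the scaling. The peaks of both lists with the values as deposited were not tested. After averaging 3 samples the highest point was 25 degrees for the small cytosolic subunit and 17.35 degrees for ribosome biogenesis. Of 6 listed regulators, 4 were higher in phase 60-120 and 1 lower. PUF3 was 1.61-fold higher (adjusted p = 1.08e-04, limma), with a median signal of 77.4. In the HAP complex, which activates respiratory genes, HAP4 was 1.41-fold higher (adjusted p = 0.00213, limma), HAP5 1.45-fold and HAP2 1.33-fold, while HAP3 was at 0.959-fold and was not called. SFP1, a regulator of cytosolic ribosome genes, was 0.916-fold (adjusted p = 0.0142, limma). HAP2, HAP3, HAP5 and SFP1 are outside the rule for named genes and were added after their values were seen.

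**Figure D5:**
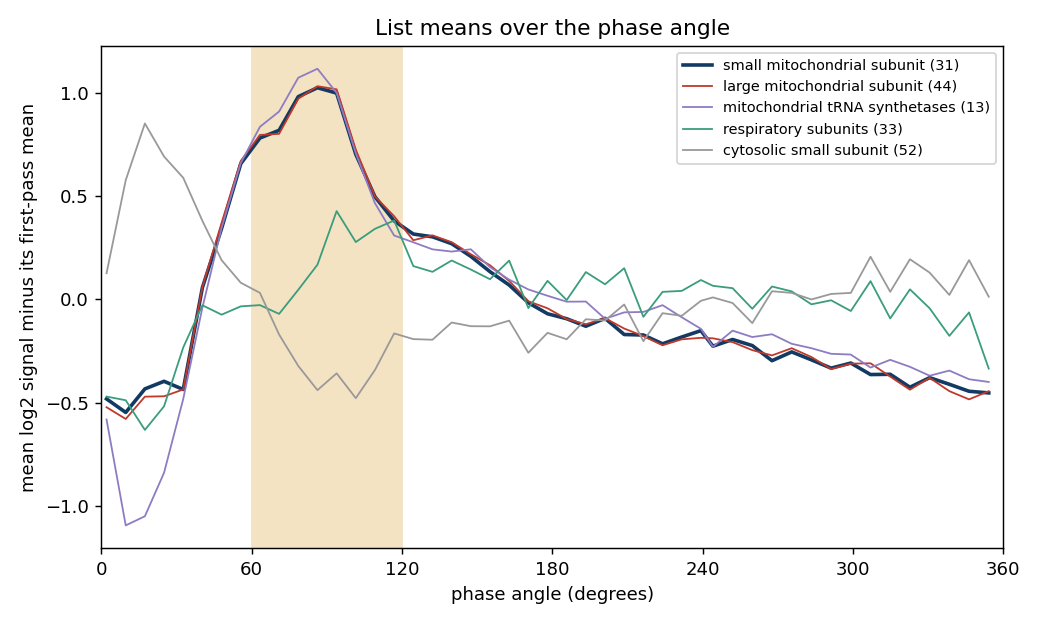
Mean log2 signal (y axis, relative to each list's own mean) of the small mitochondrial subunit, the large mitochondrial subunit, mitochondrial tRNA synthetases, respiratory chain subunits and small cytosolic subunit proteins over the phase angle in degrees (x axis). After scaling and without smoothing, as drawn, both mitochondrial subunits and the synthetases are highest at 86.24 degrees. The respiratory chain is highest at 93.89 degrees and the small cytosolic subunit at 17.35 degrees, and both of these peaks depended on the scaling.

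As a description of how alike the members were, each was correlated over the 49 samples with the mean of the others, in which EHD3 was kept. The median Pearson r was 0.954, the highest 0.984 for NAM9, and the lowest 0.803 for MRPS12, 0.729 for RSM22 and 0.088 for EHD3. Samples share the culture and the order of phases, so no test was made. Among 5395 other tested genes the median r was 0.08. The 10 genes most like the members were MHR1 (0.991), MRPL10 (0.990), MRPL40 (0.990), CQD2 (0.988), MRPL49 (0.987), IMG2 (0.986), MNP1 (0.982), MEF1 (0.979), MRPL27 (0.979) and MRPL25 (0.979). CQD2 is known from the distribution of coenzyme Q. Of these 10, 8 belong to the large mitochondrial subunit and MEF1 is an elongation factor of mitochondrial translation. Of the 100 most alike, 56 were on the lists of mitochondrial translation, 37 of them of the large subunit. The 3 least alike were JHD2 (-0.954), LAS1 (-0.951) and TGS1 (-0.937), of which JHD2 is a histone demethylase and LAS1 acts in processing ribosomal RNA. FYV4, which encodes a small-subunit protein that is not on the list and was picked after its values were seen, was 2.12-fold higher in phase 60-120 and had r = 0.972.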

How the data were processed

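RNA of 49 samples was amplified from the poly(A) tail with oligo(dT) primers, labelled with biotin and hybridised to 1 array per sample, according to the protocols in the labels. The deposited values are linear probe-set intensities. The authors obtained them with GCOS, according to the submitters' processing notes, and the sources used here give neither a version nor settings.

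Each array was set to the same median over the 5498 probe sets of S. cerevisiae genes, signals below 1 were raised to 1, and values were put on the log2 scale. Probe sets with a median signal above 11.5, the 75th percentile of the 1746 probe sets of another yeast species, were tested, and 29 were removed. A probe set lies near the 3' end of its gene, and a base that differs in CEN.PK from the array's design can reduce it, so levels were not compared between genes. The number of arrays limits the precision.

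Tests used limma 3.58.1 in R 4.3.3 (lmFit and eBayes) on all 49 samples, with Benjamini-Hochberg adjustment over 5469 probe sets at 0.05. "Called", "higher" and "lower" refer to that threshold, and fold is 2 to the power of the log2 difference. Models had a cosine and a sine term in phase, 7 groups (6 windows of 60 degrees and the second pass), or 13 groups (12 windows of 30 degrees and the second pass). Figures were drawn with matplotlib 3.10.9 in Python 3.11.15, with pandas 2.3.3 and numpy 2.4.6. The code was tested on simulated data.

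The members and lists were chosen with earlier results of these data known. All 32 members are named. Outside them, the genes named were the 10 most and 3 least like the mean of the members by Pearson's r, the genes of each list of mitochondrial translation with the largest and the smallest difference in phase 60-120, PUF3, HAP4 and controls. Where a gene had several probe sets, the brightest on average was used. Alternatives were other scalings, filters and offsets, an intensity trend, an array number term, 2 harmonics and subsets of the samples. The order of genes on chromosomes was read from RefSeq's gene table. Sequences and coordinates were not used here.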

Additional observations from a re-analysis of the deposited data

Results flagged for a closer look

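In 6 of 192 sets of a member's signals in a window (3.12%), 1 sample stood far from the others by Dixon's test at its 95% critical value, which chance gives in about 1 of 20 sets. RSM18 had its highest signal of phase 60-120, 8574.61, at 93.89 degrees, where the nearest sample had 7430.05. MRP2 had 7685.72 at 55.62 degrees as its highest of phase 0-60, where the nearest had 4967.26. In phase 240-300, RSM25 had a highest of 1119.99 at 251.97 degrees, with the nearest at 1042.25, and MRPS18 a highest of 4010.27 at 275.57 degrees, with the nearest at 3552.74. MRP21 had a lowest of 1117.98 in the same window at 291.3 degrees, with the nearest at 1259.65. NAM9 had a lowest of 1395.6 in phase 300-360 at 354.23 degrees, with the nearest at 1540.16. The 6 values lay in 6 different samples.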

How the results depend on the processing

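No paired analysis was possible because the samples were taken one after another from 1 culture and form no pairs. The 31 members called for cycling, the 31 higher in phase 60-120, the 31 higher than in phase 0-60 and the 0 called in the second pass kept their counts within 1.5 times under every alternative run on them. Of 351 values of single members' differences in phase 60-120 under an alternative, 346 kept direction and call and none that was called reversed. RSM22 missed the threshold as deposited, and EHD3, which was not called, changed sign in the other 4. The cause of the changes below was not tested.

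With the values as deposited, 7 members were lower in phase 0-60, 1 higher in phase 120-180, 0 lower in phase 180-240, 3 in phase 240-300 and 14 in phase 300-360. By steps, 0 were higher and 26 lower in 90-120 degrees, 0 lower in 120-150 degrees and 14 lower in 270-300 degrees. With quantile normalization 2 were higher in 0-30 degrees, 0 higher in 90-120 degrees and 10 lower in 120-150 degrees. With 16 added before log2, 1 was higher in 0-30 degrees. The median peak was 78.58 degrees as deposited and with 5 samples averaged.

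In the odd samples in time order, 5 were lower in phase 0-60, 0 higher in phase 120-180, 0 lower in phase 180-240, 1 in phase 240-300 and 14 in phase 300-360, and 17 were higher than in phase 120-180. In the even samples, 1 was higher in phase 120-180, 0 lower in phase 180-240, 1 in phase 240-300 and 4 in phase 300-360. Without the first 5 arrays of phase 0-60, an alternative chosen after seeing the data, 20 were higher and 1 lower in phase 0-60 and 26 lower in phase 180-240.

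With each sample left out in turn, 0 to 1 were higher and 3 to 6 lower in 0-30 degrees, 26 to 31 higher in 30-60 degrees, 30 to 31 higher in 60-90 degrees, 7 to 17 lower in 90-120 degrees, 5 to 24 lower in 120-150 degrees and 0 to 1 lower in 150-180 degrees.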
